A study of Homo sapiens with 18 samples.

Results

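The measurements concern the 10 genes of the switch that sends a cell into mitosis: the A cyclins CCNA1 and CCNA2, the B cyclins CCNB1 and CCNB2, their kinase CDK1, the phosphatases CDC25A, CDC25B and CDC25C, and the kinases WEE1 and PKMYT1. They were taken by name from the 58302 genes of the table, and each of the 10 had 1 row. RNA sequencing was carried out in TPC1, a cell line from a human papillary thyroid carcinoma, and in D11, a Dicer1 (+/-) derivative of TPC1 made with CRISPR-Cas9 that keeps 1 wild-type allele and is a single clone. In either line 3 libraries came from cells without transfection (NT), 3 from cells given a negative control siRNA (NC) and 3 from cells given Dicer1 siRNA (siDicer), with siRNA at a concentration of 5 nM and RNA taken on day 4. NT and NC together, 6 libraries, served as the control of a line, and levels are normalised read counts, which are reads scaled to 20 M per library. Nothing in the labels says that the 3 libraries of a group came from separate cultures, so p-values measure only the spread between these libraries.

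Mitotic entry depends on the kinase CDK1 bound to a cyclin A or B. WEE1 in the nucleus and PKMYT1 at internal membranes hold the complex inactive by adding phosphates to CDK1, and the CDC25 phosphatases take them off. In most dividing cells cyclin A2 appears in S phase and the B cyclins follow in G2, largely through transcription that is repressed in G1, whereas CCNA1 is known mainly from germ cells. DICER1 cuts precursor hairpins into mature microRNAs, which lower the messages that they pair with.

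The libraries held 11.3 to 23.2 M reads. For 12 of the 18 samples the title and the description disagree on the group, and the column names of the table equal the descriptions, which were followed here. DICER1 was 1397 to 2492 in the TPC1 controls and 246 to 395 in TPC1 siDicer, and 655 to 1536 in the D11 controls and 277 to 451 in D11 siDicer, so the targeted gene was low in the libraries described as siDicer. Of the thyroid follicular markers, PAX8 was 7361 to 14886, TG was 32 to 124 and FOXE1 was 61 to 214, while TSHR and SLC5A5 did not exceed 2 and NKX2-1 was listed at 0 in all 18 libraries. Of the epithelial markers, KRT8 was 5715 to 13581 and KRT18 was 2908 to 6564, while KRT19, EPCAM and CDH1 did not exceed 8. Summed markers of leukocytes, endothelium, C cells and fibroblasts were 43 to 135. Most of this was the fibroblast marker COL1A1, at 35 to 134, with CALCA at 0, PTPRC at most 4 and PECAM1 at most 12. In a bulk measurement, fewer cells in the phase that uses a gene and less of its RNA per cell cannot be told apart.

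Start-site sequences are shown first because several of these genes moved together in the comparisons that follow. The RefSeq promoter table (GRCh38.p14) held 8 of the 10 genes in 15 windows, and WEE1 and PKMYT1 were not among them. Over the 250 bases before the start, CCAAT, the letters of an NF-Y box, was searched on both strands. The same was done for TTTGAA, the letters of a cell cycle homology region, and for TTCGAA, another form of it. No further form was searched, so a window without these letters is not shown to lack such a region. An E2F-like motif was searched as TTCGCGC. Its second form was written TTGGCGC here. CCAAT occurred in 10 of the 15 windows, beside 32% of all 35116 windows, and these 10 belonged to 7 of the 8 genes, CCNA1 being the exception. Either of the searched forms of a cell cycle homology region occurred in 5 of the 15 windows, beside 14.3% of all windows. These belonged to CCNB2, CDK1, CDC25B and CDC25C. The same 5 windows also held CCAAT, and 5.05% of all windows held both. Windows of 1 gene can overlap, so the 15 are not independent. Each sequence reads 5′ to 3′ toward the start, with the searched letters or their reverse complements in capitals, and matches of the E2F-like forms may overlap.
CCNA2, chr4:121823884-121824133, minus strand: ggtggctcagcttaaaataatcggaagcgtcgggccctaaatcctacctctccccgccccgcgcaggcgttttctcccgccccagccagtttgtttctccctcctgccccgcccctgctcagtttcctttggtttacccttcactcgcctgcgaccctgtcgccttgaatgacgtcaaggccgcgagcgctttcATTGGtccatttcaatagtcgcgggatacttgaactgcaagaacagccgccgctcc
CCNB1, chr5:69166900-69167149, plus strand: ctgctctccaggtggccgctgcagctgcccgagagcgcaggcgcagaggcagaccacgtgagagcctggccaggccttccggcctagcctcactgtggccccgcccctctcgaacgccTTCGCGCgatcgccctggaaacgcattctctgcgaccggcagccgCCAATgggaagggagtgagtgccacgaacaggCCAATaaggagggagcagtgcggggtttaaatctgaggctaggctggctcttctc
CCNB2, chr15:59104896-59105145, plus strand: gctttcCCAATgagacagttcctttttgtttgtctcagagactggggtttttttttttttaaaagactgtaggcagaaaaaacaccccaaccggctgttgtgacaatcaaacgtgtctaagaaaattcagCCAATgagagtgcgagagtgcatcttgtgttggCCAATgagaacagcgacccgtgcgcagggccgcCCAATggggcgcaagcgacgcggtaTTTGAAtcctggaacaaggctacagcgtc
CDK1, chr10:60778081-60778330, plus strand: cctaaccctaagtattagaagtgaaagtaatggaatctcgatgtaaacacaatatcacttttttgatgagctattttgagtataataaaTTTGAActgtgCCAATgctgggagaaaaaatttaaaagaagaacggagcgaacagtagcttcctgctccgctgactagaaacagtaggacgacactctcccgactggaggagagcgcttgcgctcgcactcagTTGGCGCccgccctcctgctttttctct
CDC25C, chr5:138331805-138332054, minus strand: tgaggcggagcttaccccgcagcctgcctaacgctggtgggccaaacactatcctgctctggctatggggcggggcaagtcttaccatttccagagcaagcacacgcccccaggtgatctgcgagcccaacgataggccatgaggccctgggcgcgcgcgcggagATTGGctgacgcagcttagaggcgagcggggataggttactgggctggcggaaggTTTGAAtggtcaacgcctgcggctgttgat
CDC25A, chr3:48188418-48188667, minus strand: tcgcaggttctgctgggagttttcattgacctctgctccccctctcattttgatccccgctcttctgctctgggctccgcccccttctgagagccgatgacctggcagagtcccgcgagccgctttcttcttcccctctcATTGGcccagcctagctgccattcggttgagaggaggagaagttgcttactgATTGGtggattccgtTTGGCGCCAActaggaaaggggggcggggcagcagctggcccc
In CCNB2 the 4 CCAAT boxes lay 244, 120, 87 and 54 bases before the start, and TTTGAA lay 29 bases before it. In the CDC25C window a reverse CCAAT at 85 bases was followed by TTTGAA at 30 bases. In CDC25B a reverse CCAAT at 73 bases was followed by TTCGAA at 38 bases. A second CDK1 window, 60778228 to 60778477, had reverse CCAAT at 78 and 46 bases and TTTGAA at 69 and 13 bases before its start. CDC25A held 2 overlapping TTGGCGC matches, 43 and 40 bases before its start, and the first CDK1 window held 1 at 28 bases, a motif in 2.56% of all windows. CCNB1 and the second CDK1 window held TTCGCGC, found in 1.85%. These matches describe letters and are not shown to be bound.

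Before siDicer, the B1 cyclin and the kinase were the most abundant messages of the set. Per kb of the canonical transcript, CCNB1 averaged 2426 ± 330 (SD, n = 6) in the TPC1 controls and CDK1 1848 ± 163, and the ranges of the pair overlapped. CDC25B at 953 ± 104, CCNA2 at 905 ± 129 and CCNB2 at 899 ± 66.8 followed with overlapping ranges, then PKMYT1 at 595 ± 94.7. WEE1 at 242 ± 19.1, CDC25A at 210 ± 68.6 and CDC25C at 177 ± 17.0 came next, with CDC25A overlapping both neighbours. CCNA1 was lowest at 43.4 ± 38.8. In the D11 controls CCNB1 at 2664 ± 329 lay above CDK1 at 1870 ± 124 without overlap. CCNA2, CCNB2 and CDC25B in that line, at 977, 938 and 884 per kb, each overlapped the next. The order depends on the transcript length used. With the union of all exons, CCNA2 took the second place from CDK1 in the controls of both lines and WEE1 dropped from the seventh place to the ninth.

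With siDicer, all 4 cyclins and CDC25C fell in both lines, PKMYT1 fell in D11, and no member rose past both limits of the test. To be called, a gene needed a limma adjusted p below 0.05 together with a 1.5-fold change or more. In TPC1 5 of the 10 members were called lower and 0 higher, where 4.16% of the 18475 genes tested were called lower and 3.22% higher. In D11 6 of the 10 were called lower and 0 higher, where 6.75% of the 18413 genes tested were called lower and 5.26% higher. Without the fold minimum, 7 members passed in TPC1 and 9 in D11, where 13.8% and 22.2% of genes passed. All 10 passed the filter on low values in both lines. The median log2 change of the 10 was -0.57 in TPC1 and -0.81 in D11, beside -0.04 for all genes tested in either line. Every library's value is drawn in the plot of the 10 genes, and the fitted changes are drawn in the plot of log2 changes.

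**Figure D1:**
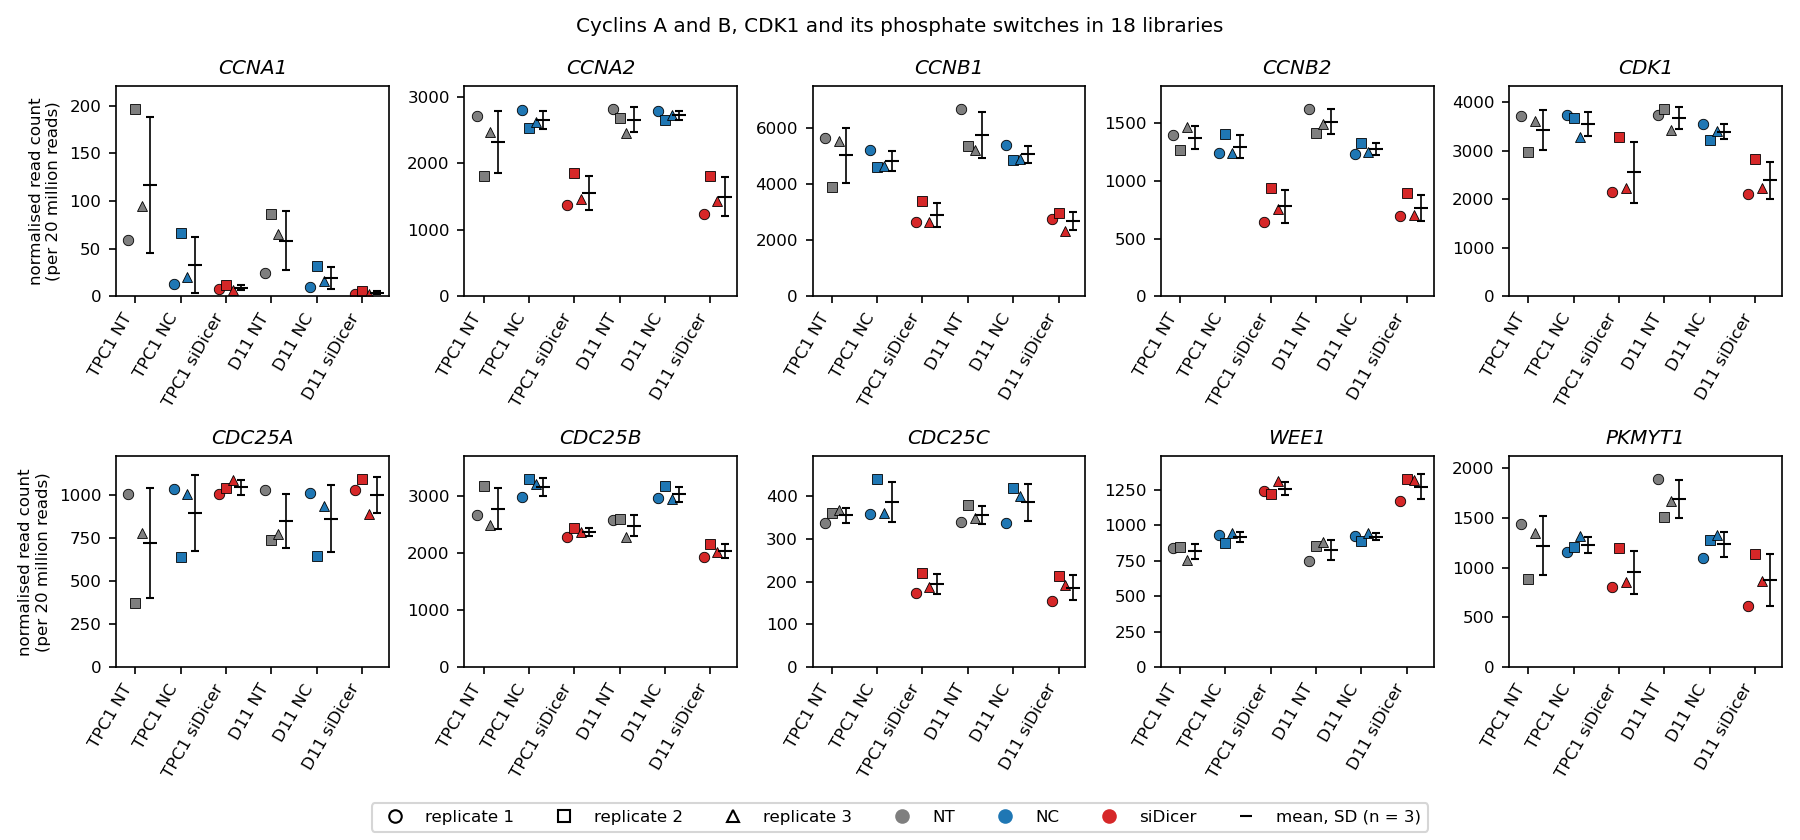
Normalised read count per 20 M reads (y axis, linear from 0) of the 10 genes in the 6 groups. Points are libraries with the replicate number as the shape, and the bar beside them is the mean with the SD (n = 3). The 3 siDicer libraries of CCNB1 sit at 2641 to 3391 in TPC1 and 2331 to 2971 in D11, below all 6 controls of their line, while those of WEE1 sit above theirs.

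The B cyclins were about 0.5 to 0.6 of their control levels. CCNB1, whose protein carries CDK1 into the nucleus at mitotic entry (ENSG00000134057, chromosome 5, 69167135 to 69178245 on GRCh38, plus strand), was 3890 at the lowest, 4931 at the median and 5649 at the highest of the 6 TPC1 controls, and 2641, 3391 and 2645 in siDicer replicates 1 to 3. In D11 the controls were 4871, 5290 and 6689 and the siDicer libraries 2744, 2971 and 2331. The siDicer libraries were below every control in both lines, as for 5 of the 10 members in TPC1 and 7 in D11, where 9.91% and 14.1% of the genes tested were below without overlap. The mean was 58.8% of control in TPC1, a log2 change of -0.77 (SE 0.13, adjusted p = 0.005, limma), and 49.6% in D11, a log2 change of -1.01 (SE 0.11, adjusted p = 0.000187, limma).

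CCNB2, a B cyclin found at the Golgi (ENSG00000157456, chromosome 15, 59105126 to 59125045, plus strand), ran from 1240 through a median of 1334 to 1465 in the TPC1 controls and was 648, 937 and 756 in siDicer. The D11 controls ran from 1237 through 1376 to 1629 and the siDicer libraries were 694, 895 and 706. Again the groups did not overlap in either line. The log2 change was -0.79 (SE 0.12, adjusted p = 0.00265) in TPC1 and -0.87 (SE 0.12, adjusted p = 0.000568) in D11. The B1 to B2 ratio per kb stayed within its control range, at 2.74 ± 0.223 (SD, n = 3) in TPC1 siDicer beside 2.70 ± 0.321 (n = 6) in the controls. In D11 it was 2.59 ± 0.272 in siDicer, with a range of 2.42 to 2.90, beside 2.85 ± 0.232 in the controls, with a range of 2.56 to 3.20, so that only part of the siDicer range lay within the control range.

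CCNA2, the cyclin A of somatic cells that works with CDK2 in S phase and CDK1 in G2 (ENSG00000145386, chromosome 4, 121816444 to 121823883, minus strand), was 1806, 2572 and 2802 at the lowest, median and highest TPC1 control and 1368, 1848 and 1460 in siDicer. The lowest control, NT replicate 2, lay below siDicer replicate 2, so these groups overlapped. In D11 the controls were 2447, 2702 and 2820 and the siDicer libraries 1238, 1813 and 1437, with no overlap. Its log2 change was -0.67 (SE 0.14, adjusted p = 0.0126) in TPC1 and -0.86 (SE 0.11, adjusted p = 0.000422) in D11. The TPC1 call was lost without siDicer replicate 1 (log2 change -0.58, adjusted p = 0.0813), without siDicer replicate 3 (-0.63, adjusted p = 0.0779) and against NT alone (-0.57, adjusted p = 0.0886). CCNA2 shares 254 exonic bases with EXOSC9 on the opposite strand, and whether the counting used strand is not stated in the sources used here.

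CCNA1 (ENSG00000133101, chromosome 13, 36431520 to 36442870, plus strand) had few reads and the widest spread of the set. The 3 TPC1 NT libraries, in the order of their numbers, gave 59, 197 and 95, the NC libraries gave 13, 67 and 20, and with siDicer the values were 8, 12 and 7. For D11 the NT values were 25, 86 and 65, the NC values 10, 32 and 16, and the siDicer values 3, 6 and 3. No siDicer value reached the lowest control of its line, replicate 2 was the highest of each of the 6 groups, and NC lay below NT at each replicate number. In recovered reads, siDicer summed to 26 in TPC1 and to 8 in D11, so the D11 level rests on 2 to 4 reads per library. Relative to depth this was 11.1% of control in TPC1 (95% exact interval 7.16 to 16.6%) and 9.30% in D11 (3.95 to 18.8%), intervals that cover counting error only. That control joins NT and NC, with means of 117 and 33.3 in TPC1 and of 58.7 and 19.3 in D11. Of NC alone, the siDicer means of 9 in TPC1 and 4 in D11 are larger shares. The fitted log2 change was -2.44 (SE 0.70, adjusted p = 0.0407) in TPC1 and -2.69 (SE 0.57, adjusted p = 0.00561) in D11, on the log2(value + 1) scale, which understates changes of low genes.

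The TPC1 call of CCNA1 was lost when any of 6 libraries was left out: NT replicate 1 (adjusted p = 0.0757), NT replicate 3 (0.0797), NC replicate 2 (0.0714) and siDicer replicates 1, 2 and 3 (0.147, 0.0516 and 0.160). It was also lost against NC alone, where the log2 change was -1.47 (adjusted p = 0.136), with a pseudocount of 10 (-1.80, adjusted p = 0.0576), with no filter on low values (adjusted p = 0.0504) and with voom on recovered reads (adjusted p = 0.10). The fitted change (log2) was -3.42 against NT alone. In D11 the call held in each of the 9 fits that left out 1 library, with log2 changes of -2.99 to -2.40.

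**Figure D2:**
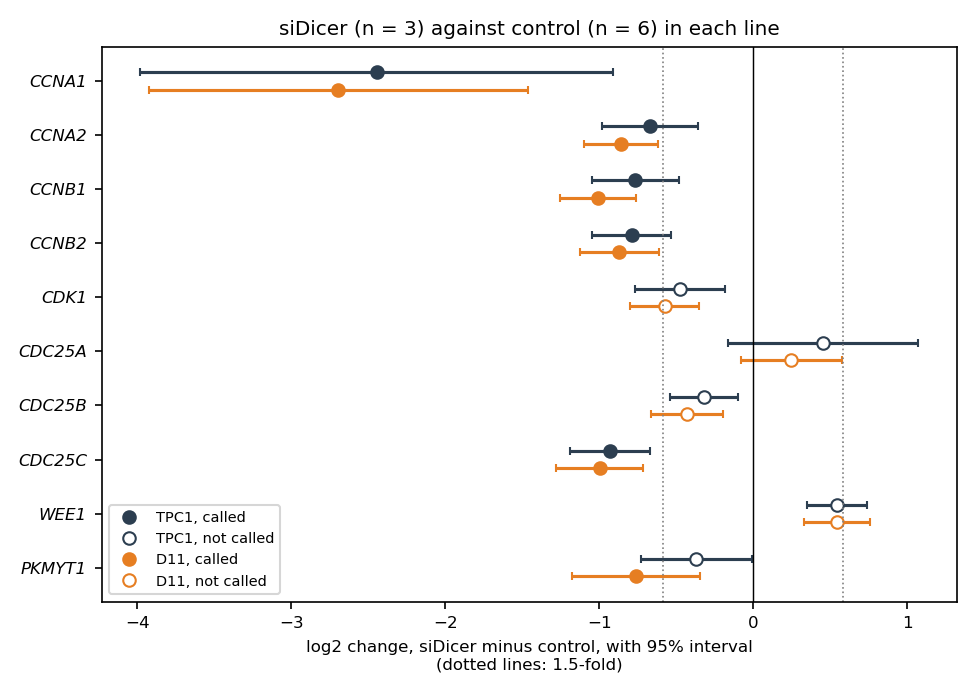
Fitted log2 change (x axis, siDicer minus control, points with 95% intervals) of the 10 genes in TPC1 and D11, with filled points for called genes and dotted lines at a 1.5-fold change. The 4 cyclins and CDC25C are filled in both lines and PKMYT1 in D11, and WEE1 and CDC25A are the only points right of 0.

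The kinase itself was not called in either line. CDK1 (ENSG00000170312, chromosome 10, 60778331 to 60794852, plus strand) was 2964, 3635 and 3728 at the lowest, median and highest TPC1 control and 2152, 3280 and 2225 in siDicer. In D11 the controls were 3230, 3483 and 3868 and the siDicer libraries 2109, 2824 and 2232. In TPC1 siDicer replicate 2 lay inside the control range, and in D11 all 3 siDicer libraries lay below it. The change in log2 was -0.47 (SE 0.13, adjusted p = 0.0384) in TPC1 and -0.57 (SE 0.10, adjusted p = 0.00248) in D11, both short of the fold minimum. Without siDicer replicate 2, CDK1 passed both limits, at -0.67 in TPC1 (adjusted p = 0.00228) and -0.70 in D11 (adjusted p = 0.0014). In D11 it also passed without NC replicate 2 (-0.60, adjusted p = 0.00327) and against NT alone (-0.63, adjusted p = 0.00665). In TPC1 most other limma fits that left out 1 library missed the adjusted p limit too. Without siDicer replicate 1 the change was -0.36 (adjusted p = 0.199), and without replicate 3 -0.39 (adjusted p = 0.197). The TPC1 limit was also missed against NC alone (adjusted p = 0.0858), against NT alone (0.149) and under other scalings (0.0534 and 0.0525).

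Cyclin B1 per CDK1, both per kb, was 1.31 ± 0.105 (SD, n = 6) in the TPC1 controls and 1.07 ± 0.0953 (n = 3) in siDicer, with siDicer values of 0.963 to 1.14 below all control values of 1.17 to 1.43. In D11 it was 1.42 ± 0.131 in the controls and 1.05 ± 0.136 in siDicer, and the siDicer range of 0.972 to 1.21 again lay below the control range of 1.29 to 1.67. Cyclin A2 per CDK1 was 0.488 ± 0.0451 in the TPC1 controls and 0.425 ± 0.0335 in siDicer, with overlap, and 0.524 ± 0.0342 and 0.429 ± 0.0222 in D11, without overlap. These ratios of messages were not tested.

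Of the phosphatases that release CDK1, CDC25C fell in both lines, CDC25B passed the adjusted p limit in D11 alone and the fold minimum in neither line, and CDC25A passed neither limit in either line. CDC25C, which acts on cyclin B and CDK1 at mitotic entry (ENSG00000158402, chromosome 5, 138285269 to 138338355, minus strand), was 336, 361 and 440 at the lowest, median and highest TPC1 control and 174, 221 and 188 in siDicer. In D11 the controls were 336, 364 and 419 and the siDicer libraries 155, 212 and 191. The groups were apart in both lines. The log2 change was -0.93 (SE 0.12, adjusted p = 0.00127) in TPC1 and -1.0 (SE 0.13, adjusted p = 0.000452) in D11, and both calls held in each of the 9 fits without 1 library. CDC25C shares 293 exonic bases with FAM53C on the opposite strand.

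CDC25B, thought to start the activation of cyclin B and CDK1 at the centrosome (ENSG00000101224, chromosome 20, 3786772 to 3806121, plus strand), was 2487, 3082 and 3301 in the TPC1 controls and 2291, 2444 and 2374 in siDicer. The D11 controls were 2277, 2777 and 3175 and the siDicer libraries 1925, 2162 and 2018. Each siDicer library was below each control of its line, by a small margin. Its log2 change was -0.32 (SE 0.10, adjusted p = 0.0539) in TPC1 and -0.43 (SE 0.11, adjusted p = 0.0138) in D11.

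CDC25A, which also acts on CDK2 at the start of S phase (ENSG00000164045, chromosome 3, 48157146 to 48188417, minus strand), had TPC1 values of 1005, 373 and 776 for NT, 1036, 641 and 1006 for NC, and 1004, 1038 and 1088 for siDicer. The D11 values were 1028, 738 and 774 for NT, 1010, 644 and 933 for NC, and 1027, 1092 and 887 for siDicer. The siDicer libraries lay above the control median, inside or just above the control range, and replicate 2 was the lowest of NT and NC in both lines. The fitted change (log2) was 0.45 (95% interval -0.16 to 1.07, adjusted p = 0.306) in TPC1 and 0.25 (-0.08 to 0.57, adjusted p = 0.27) in D11. Leaving out TPC1 NT replicate 2 took the TPC1 value to 0.25.

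As shares of the 3 phosphatase messages per kb, CDC25A made up 15.7 ± 5.01% (SD, n = 6) of the TPC1 controls and 24.2 ± 0.834% (n = 3) of siDicer, and 17.4 ± 3.15% and 26.0 ± 2.05% in D11. The siDicer shares were above all control shares in both lines, with 20.4% and 21.3% as the highest controls. The share of CDC25C went from 13.3 ± 1.31% to 8.25 ± 0.756% in TPC1 and from 13.8 ± 1.34% to 8.85 ± 0.969% in D11, again without overlap. CDC25B stayed the largest share, at 67.6% and 65.1% in siDicer beside 71.1% and 68.8% in the controls. A share also rises when the other members of the sum fall. CDC25B and CDC25C lay below all controls of their line, while CDC25A overlapped its controls (limma adjusted p = 0.306 and 0.27). The higher share of CDC25A is therefore not shown to be a rise of its level. The shares were not tested.

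Of the inhibitory kinases, WEE1 had a positive change that passed the adjusted p limit but not the fold minimum in both lines, and PKMYT1 fell in D11 and did not pass in TPC1. WEE1 (ENSG00000166483, chromosome 11, 9573670 to 9593457, plus strand) was 756, 864 and 945 at the lowest, median and highest TPC1 control and 1244, 1221 and 1315 in siDicer. In D11 the controls were 748, 888 and 944 and the siDicer libraries 1170, 1327 and 1319. All siDicer libraries were above all controls, which was so for 7.62% of the genes tested in TPC1 and 11% in D11. The mean was 145% of control in TPC1 and 146% in D11, log2 changes of 0.54 in both (SE 0.09 and 0.10, adjusted p = 0.00447 and 0.00273), just under the fold minimum. Against NT alone the gene passed it in both lines, at 0.63 (adjusted p = 0.0201) and 0.62 (adjusted p = 0.00498). In D11 it also passed without siDicer replicate 1 (0.60, adjusted p = 0.00855). Against NC alone the change was smaller, 0.46 in both lines, and short of the fold minimum. NC was itself above NT by a log2 difference of 0.17 in TPC1 and 0.16 in D11 (limma adjusted p = 0.585 and 0.562). WEE1 contains a snoRNA that shares 104 exonic bases with it on the same strand.

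PKMYT1 (ENSG00000127564, chromosome 16, 2968024 to 2980479, minus strand) was 884, 1263 and 1439 at the lowest, median and highest TPC1 control and 810, 1198 and 851 in siDicer. In D11 the controls were 1094, 1422 and 1893 and the siDicer libraries 619, 1140 and 866. Replicate 2 of siDicer lay inside the control range in both lines. The change in log2 was -0.37 (SE 0.16, adjusted p = 0.155) in TPC1 and -0.76 (SE 0.19, adjusted p = 0.0138) in D11. The D11 call was lost without siDicer replicate 1 (-0.54, adjusted p = 0.0839), without siDicer replicate 3 (-0.78, adjusted p = 0.0563) and against NC alone (-0.54, adjusted p = 0.0842). PKMYT1 shares 1228 exonic bases with PAQR4 and 357 with KREMEN2, both on the opposite strand.

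The levels of several members were also set against that of WEE1. Per kb, CDC25C per WEE1 was 0.737 ± 0.0896 (SD, n = 6) in the TPC1 controls and 0.265 ± 0.0393 (n = 3) in siDicer, and 0.729 ± 0.0684 and 0.250 ± 0.0234 in D11. The lowest control ratio, 0.623, was above the highest siDicer ratio, 0.310, over both lines. This had to be so, because with siDicer CDC25C lay below and WEE1 above every control. The ratio therefore restates those results and is no separate evidence. Cyclin B1 per WEE1 was 10.1 ± 1.90 and 4.07 ± 0.732 in TPC1 and 11.1 ± 2.41 and 3.74 ± 0.544 in D11. CDK1 per WEE1 was 7.69 ± 0.976 and 3.87 ± 1.07 in TPC1 and 7.74 ± 1.07 and 3.56 ± 0.430 in D11. CDC25A per WEE1 kept overlapping ranges, at 0.866 ± 0.268 and 0.773 ± 0.0201 in TPC1 and 0.921 ± 0.212 and 0.738 ± 0.0992 in D11. The ratios were not tested and are drawn in the plot of ratios.

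Since DICER1 makes microRNAs, the canonical 3′ UTRs were read for 7-base matches to the seeds (bases 2 to 8) of 6 microRNAs of known cell cycle or thyroid interest. No microRNA level was measured in these libraries. The sequences of the 5 microRNAs with a match in any of the 10 genes follow, from RefSeq, with the seed in capitals. The sixth, miR-34a-5p, had no match in the set, beside 17.5% of the 13195 genes tested in D11 with an annotated 3′ UTR.
hsa-let-7a-5p: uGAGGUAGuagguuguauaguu
hsa-miR-15a-5p: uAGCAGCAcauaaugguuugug
hsa-miR-17-5p: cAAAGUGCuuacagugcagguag
hsa-miR-21-5p: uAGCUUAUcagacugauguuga
hsa-miR-24-3p: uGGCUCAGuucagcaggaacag
The 4 cyclins, CDK1 and CDC25C held no match in 3′ UTRs of 168 to 1194 bases. CDC25A held 6, WEE1 held 3, CDC25B held 2 and PKMYT1 held 1, in UTRs of 1799, 1383, 1154 and 145 bases. The 2 genes with positive log2 changes, CDC25A and WEE1, thus had the most matches and also the 2 longest UTRs, and the median UTR of the genes tested was 1306 bases. Neither of these genes was called in either line, and CDC25B and PKMYT1, which also held matches, had negative changes. Over 13195 genes tested in D11 with an annotated 3′ UTR, 11% held a let-7a match, 24.8% a miR-15a match, 24.6% a miR-17 match, 9.69% a miR-21 match and 17.2% a miR-24 match. Each site is shown with its flanks, from the GRCh38 genome, with the match in capitals and positions counted from 1 at the first base after the stop codon.
CDC25A, let-7a-5p, bases 136 to 142: catgccttaaacCTACCTCccacactccca
CDC25A, let-7a-5p, bases 552 to 558: ttatcccagggaCTACCTCggcttttaatt
CDC25A, miR-15a-5p, bases 365 to 371: gttacacagaaaTGCTGCTggccaaatagc
CDC25A, miR-15a-5p, bases 674 to 680: tggtactggggcTGCTGCTatttaagccaa
CDC25A, miR-21-5p, bases 740 to 746: tggctgcctgacATAAGCTaaatctcccag
CDC25A, miR-24-3p, bases 267 to 273: tgtcaagctgctCTGAGCCacagtgggatg
CDC25B, let-7a-5p, bases 20 to 26: gcgccagtcctgCTACCTCccttgcctttc
CDC25B, miR-15a-5p, bases 813 to 819: ctgctcagaactTGCTGCTgtcttgttgcg
WEE1, miR-15a-5p, bases 265 to 271: actgtggtggtgTGCTGCTtatagtttgct
WEE1, miR-15a-5p, bases 544 to 550: gccttgtgaattTGCTGCTattttagtttt
WEE1, miR-17-5p, bases 480 to 486: atcccactgggaGCACTTTgtaggcattgc
PKMYT1, miR-17-5p, bases 19 to 25: gactctgcctctGCACTTTtaaccttttat
The matches are a description and were not tested against the changes, and a match is not shown to be a target.

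The siDicer response was compared between the lines by the interaction term. None of the 10 genes was called, and 0% of 19181 genes were. At an unadjusted p under 0.05 there were also 0 of the 10, beside 0.693% of all genes. With no differences at all, a share near the limit itself would pass. This fit was therefore conservative, and 0 of the 10 says little. The difference in log2 change, D11 minus TPC1, ran from -0.39 for PKMYT1 (95% interval -0.96 to 0.18) to 0.0003 for WEE1 (-0.27 to 0.27). It was -0.24 for CCNB1 (-0.62 to 0.13), -0.19 for CCNA2 (-0.58 to 0.20), -0.08 for CCNB2 (-0.43 to 0.27) and -0.07 for CDC25C (-0.42 to 0.29). For CCNA1 the interval was wide, -2.28 to 1.78 around -0.25. The smallest unadjusted p was 0.164. These intervals still hold differences of a size that was called within a line, so similar responses are not shown either.

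The clone and its parent were also compared without siDicer. In the 12 control libraries 0 of the 10 were called for D11 against TPC1, where 1.02% of 18814 genes were, and 0 of the 10 had an unadjusted p under 0.05, beside 9.85% of all genes. All 10 ranges overlapped between the lines, while 0.308% of genes were higher and 0.951% lower in D11 without overlap. PKMYT1 was 1464 ± 289 (SD, n = 6) in D11 and 1226 ± 195 in TPC1 (log2 difference 0.25, SE 0.13, adjusted p = 0.535), and CCNA1 39 ± 30 and 75.2 ± 67.0 (-0.77, SE 0.43, adjusted p = 0.569). With the replicate number as a block CCNA1 was called lower in D11 (adjusted p = 0.0253). DICER1 itself was called lower in D11, at 1185 ± 342 beside 1875 ± 463 in TPC1 (-0.68, adjusted p = 0.00561).

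Non-transfected and negative control cells were compared because they form one control group. In limma 0 of the 10 were called in either line, where 0.111% of 18008 genes in TPC1 and 0.35% of 17992 in D11 were. At an unadjusted p under 0.05 there was 1 in TPC1 and 4 in D11, beside 11.1% and 13.6% of all genes. CCNA1 was the one in TPC1, with NC lower than NT by a log2 difference of -1.94 (adjusted p = 0.307), and it was -1.53 in D11 (adjusted p = 0.256). With the replicate number as a block, CCNA1 was called lower in NC in both lines (adjusted p = 0.019 in D11). PKMYT1 in D11 was 1693 ± 190 (SD, n = 3) in NT and 1236 ± 125 in NC, a log2 difference of -0.45 (adjusted p = 0.177), and the 3 NC libraries lay below the 3 NT libraries, as for 9.03% of genes. The D11 change of PKMYT1 with siDicer was therefore -0.99 against NT and -0.54 against NC. CDC25B in D11 went the other way, with NC at 3030 ± 125 and NT at 2485 ± 180 (log2 difference 0.29, adjusted p = 0.278), without overlap, as for 10.8% of genes. CCNB2 in D11 was 1275 ± 52.0 in NC and 1515 ± 106 in NT (-0.25, adjusted p = 0.347). DICER1 in TPC1 was 2253 ± 311 in NC and 1496 ± 93.3 in NT (0.58, adjusted p = 0.133). In D11 DICER1 was 1459 ± 68.2 in NC and 912 ± 251 in NT (0.71, adjusted p = 0.153). Neither passed, but the control mean of DICER1 joins these unlike levels.

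Among the members called lower, the siDicer library with the most DICER1 left was also the closest to the mean of the joined NT and NC controls. In TPC1 replicates 1, 2 and 3 kept 13.6%, 21.1% and 13.1% of the control mean of DICER1, and in D11 25.1%, 38.1% and 23.4%. CDK1 in the same order was 61.7%, 94.0% and 63.7% of control in TPC1 and 59.7%, 79.9% and 63.2% in D11. PKMYT1 was 66.1%, 97.7% and 69.4% in TPC1 and 42.3%, 77.9% and 59.1% in D11. Replicate 2 was the nearest to that joined mean for all 5 members called in TPC1 and all 6 called in D11. That was so for 76.9% of the 769 genes called lower in TPC1 and 62.2% of the 1243 in D11, so the members are no exception. The joined mean takes no account of the replicate number. For CCNA1, replicate 2 was also the highest of NT and of NC in both lines, so its order is not particular to siDicer. Replicate 2 of CDC25C was likewise the highest of TPC1 NC (440), D11 NT (380) and D11 NC (419). For CCNB2 it was the highest of NC (1411 in TPC1, 1334 in D11) but the lowest of NT in both lines (1266 and 1418). For CCNA2 and CCNB1 it was the lowest of TPC1 NT (1806 and 3890), TPC1 NC (2526 and 4595) and D11 NC (2654 and 4871). Without siDicer replicate 2, 5 members were called in TPC1 and 7 in D11. WEE1, not called in either line, was 143%, 141% and 152% of control in TPC1, with replicate 2 nearest, and 134%, 152% and 151% in D11, with replicate 1 nearest. Whether the remaining DICER1 has a part in these differences was not tested.

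**Figure D3:**
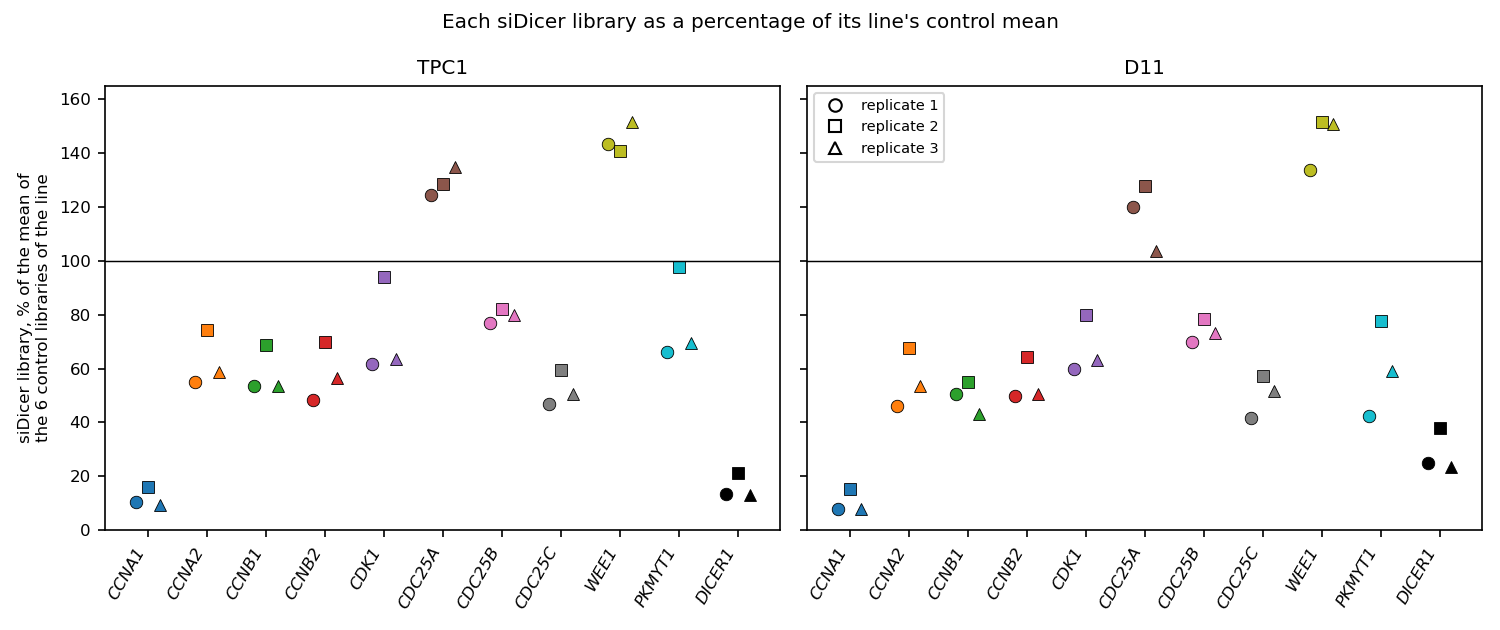
Level of each siDicer library as a percentage of the mean of the 6 controls of its line (y axis), for the 10 genes and DICER1, with the replicate number as the shape and a line at 100%. Replicate 2, the square, is nearest to 100% for CDK1 at 94.0% in TPC1 and 79.9% in D11, and highest for DICER1 at 21.1% and 38.1%.

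Around the switch, 70 genes in 5 lists showed 10 calls in TPC1, all lower, and 17 in D11, 15 of them lower, beside the shares of 4.16% and 6.75% called lower and 3.22% and 5.26% called higher among all genes. The lists were written with earlier results of these data known. Among 10 CDK1 partners and subunits of the CDK-activating kinase, 2 fell in TPC1 and 3 in D11, with median log2 changes of -0.30 and -0.41. CDKN3, a phosphatase of the activating site of CDK, went from 966 ± 133 (SD, n = 6) to 491 ± 171 (n = 3) in TPC1 and from 962 ± 143 to 419 ± 95.7 in D11 (log2 change -1.02 and -1.21, adjusted p = 0.00663 and 0.00042). CCNB3, a B-type cyclin of meiosis, was called in both lines at low levels of 93.2 and 80.5 in the controls (-0.95 and -1.27). CKS1B, a small CDK-binding protein, fell in D11 (-0.63, adjusted p = 0.00224), with -0.49 in TPC1, short of the fold minimum.

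Among 10 kinases of mitotic entry and members of the phosphatase branch, 3 fell in TPC1 and 4 in D11, with medians of -0.36 and -0.38. AURKA, which activates PLK1, went from 2972 ± 414 to 1590 ± 187 in TPC1 and from 3188 ± 249 to 1479 ± 185 in D11 (log2 change -0.90 and -1.11, adjusted p = 0.00267 and 6.19e-05). PLK1, which phosphorylates CDC25C, WEE1 and PKMYT1, changed by -0.73 and -0.97 (adjusted p = 0.00406 and 0.00025), and MELK by -1.03 and -1.12 (adjusted p = 0.00772 and 0.000224). Among 17 genes of cyclin A and B proteolysis, 3 fell in TPC1 and 5 in D11, with medians of -0.19 and -0.29. CDC20, an activator of the anaphase-promoting complex, changed by -0.74 and -1.02 (adjusted p = 0.0145 and 0.000251), PTTG1, its substrate securin, by -0.79 and -1.01, and UBE2S, a ubiquitin-conjugating enzyme of that complex, by -0.67 and -0.96.

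The 13 checkpoint genes upstream of CDC25 and WEE1 had median log2 changes of -0.24 in TPC1 and -0.21 in D11, and 1 in TPC1 and 7 in D11 had an adjusted p under 0.05. None of them reached the fold minimum as well in TPC1, and in D11 FBXW7, a ubiquitin ligase subunit, rose (0.59, adjusted p = 0.0291) and SFN, at 11.7 ± 4.23 in the controls, fell (-1.69, adjusted p = 0.00858). In TPC1 FBXW7 was at 0.36 and SFN at -0.47, neither past the test. Of 20 transcription genes, 2 fell in TPC1, and in D11 2 fell and 1 rose, with medians of -0.10 and -0.08. FOXM1, a factor that raises G2/M genes, fell in D11 (-0.70, adjusted p = 0.000819), with -0.52 in TPC1. E2F8, a repressor of E2F genes, fell in both (-1.07 and -1.15, adjusted p = 0.00748 and 0.00241), and TFDP2, a partner of E2F factors, rose in D11 (0.61, adjusted p = 0.00247), with 0.38 in TPC1. The differences between lines in these lists were not tested as a group.

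**Figure D4:**
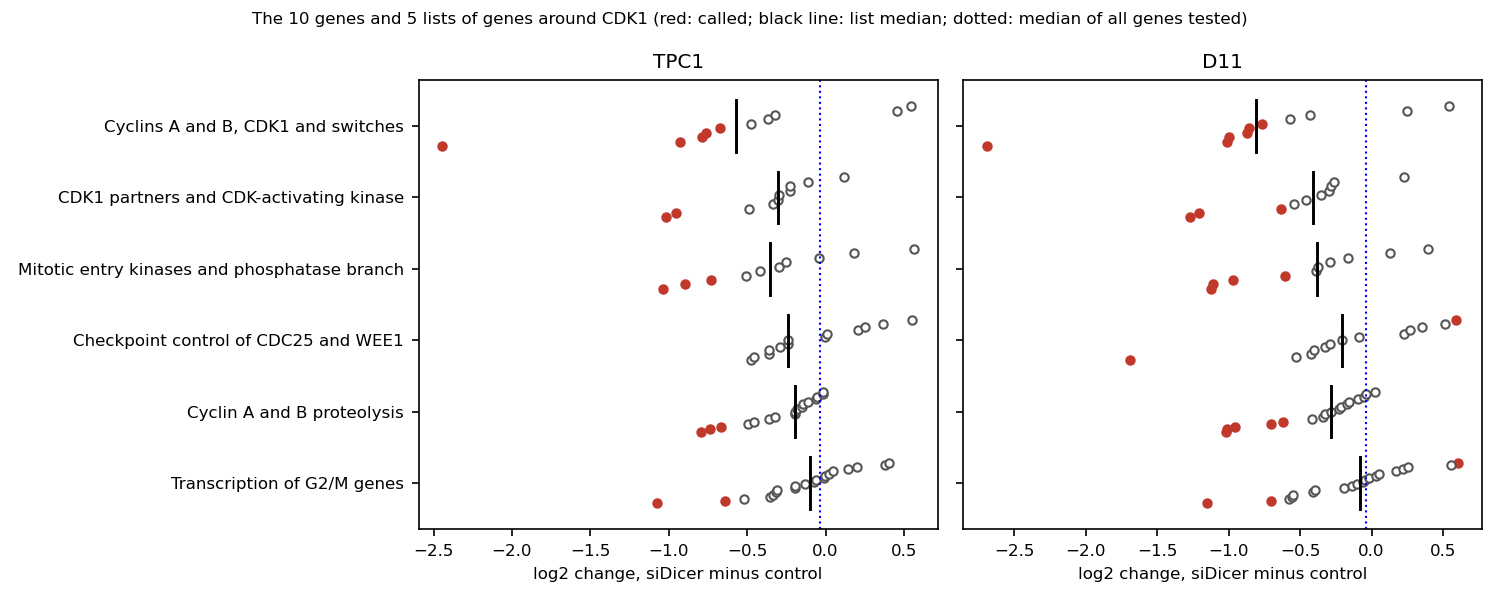
Fitted log2 change (x axis, siDicer minus control) of each gene of the 10-gene set and of the 5 lists (rows) in TPC1 and D11. Red points are called genes, the black bar is the median of the row and the dotted line the median of all genes tested, -0.04. The set has medians of -0.57 and -0.81, and the transcription row -0.10 and -0.08.

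Likeness of pattern was measured as the root mean square difference of log2 profiles, each centred on its own mean over the 18 libraries, over the 13002 genes whose mean reached 100 in 1 group or more. For CCNB1 the nearest outside the set were AC008870.3 (0.0838), KIF2C (0.0940), CACYBP (0.0962), PSMA2 (0.0998) and UBE2N (0.101), all nearer than CCNB2 at 0.137 or CCNA2 at 0.151. AC008870.3 lies within PLK1 on the opposite strand. For CDK1 the nearest were LCORL (0.0674), MCM3 (0.0756), PRC1-AS1 (0.0779), PRC1 (0.0789) and NDC80 (0.0792), and the nearest of the set was CCNA2 at 0.157. LCORL overlaps NCAPG and PRC1-AS1 overlaps PRC1, in each case on opposite strands, so reads of these pairs may not be separate. WEE1, at 0.715 from CCNB1 and 0.540 from CDK1, and CCNA1, at 1.36 and 1.44, were the farthest of the set from both.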

How the data were processed

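Messenger RNA of 18 libraries in 6 groups was measured. Alignment by the authors used STAR 2.5.3a on GRCh38, and counting used HTSeq 0.9.1 on Ensembl release 90. The deposited values are normalised to 20 M aligned reads, so the unit is a normalised score and not a count. Values were rounded up to whole numbers, and 1 read was worth 0.861 to 1.77 units. Dividing by that step returned whole reads for 99.63 to 99.92% of values in 16 libraries. The edgeR test named in the methods of the study needs counts and was not used. limma 3.58.1 in R 4.3.3 (trend) was fitted on log2(value + 1) to genes with at least 10 in at least 3 libraries of the fit. Benjamini-Hochberg adjustment was made over all genes fitted. The fit was tested on simulated libraries drawn independently of each other. That check does not cover the deviations that libraries of the same number share here. Calls needed an adjusted p below 0.05 and a 1.5-fold change or more. The comparisons were siDicer against NT and NC joined, NC against NT, D11 against TPC1 in controls adjusted for transfection, and the line by siDicer interaction.

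Groups followed the sample descriptions. The members, lists and tests were chosen with earlier results of these data known. Named were the 10 members, DICER1, of each list the 3 genes with the smallest adjusted p among those called in D11 (fewer where fewer were called), and the 5 genes nearest in pattern to CCNB1 and to CDK1 with a group mean of at least 100. In D11, libraries with the same number deviated together from their group means in 9 of 9 pairs (correlation 0.108 to 0.504), and the numbers were taken to pair them. The main fits held no block in either line. Positions, canonical transcripts and 3′ UTRs come from GENCODE release 44, and promoters and microRNAs from RefSeq. Replicates differed by more than sampling noise, with a chi-square per degree of freedom of 4.36 to 40.9. Alternatives were other scalings, pseudocounts of 0.1 and 10, no filter, no fold minimum, NT or NC alone, 1 fit of all 18 libraries, voom on recovered reads, a replicate block, fits that each lacked 1 library, and grouping by the titles.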

Additional observations from a re-analysis of the deposited data

Results flagged for a closer look

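In 20 control groups of 6 libraries, 1 gene in 1 line each, 3 had a library set apart from the other 5 by Dixon's criterion, which chance flags for about 1 group in 20. CCNA2 in TPC1 NT replicate 2 was 1806, the lowest of its controls, with the next at 2461. CCNB1 in D11 NT replicate 1 was 6689, the highest of its controls, with the next at 5394. CDC25C in TPC1 NC replicate 2 was 440, the highest of its controls, with the next at 368. No gene of the set moved in opposite directions with siDicer in the 2 lines.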

How the results depend on the processing

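Members called with siDicer numbered 5 in TPC1 and 6 in D11, and 4 to 7 and 5 to 9 under other scalings, pseudocounts, filters, fold limits, control groups, a fit of all 18 libraries, voom and the replicate block. With groups from the titles limma called 0 members and 0 of all genes in both lines, with 236 genes in TPC1 and 226 in D11 at an unadjusted p under 0.05. Without 1 library the counts were 3 to 5 for TPC1 and 5 to 7 for D11, with 3 without TPC1 siDicer replicate 1 or 3. List genes called, 10 in TPC1 and 17 in D11, were 6 against NT alone in TPC1 and 11 against NC alone in D11, and 3 to 16 and 14 to 23 without 1 library (in TPC1 6, 16 and 3 without siDicer replicates 1, 2 and 3). Every siDicer change of the 10 genes kept its direction in each of these fits, the grouping by titles apart, for which single changes were not compared.

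With the replicate block, 1 member, CCNA1, was called for NC against NT in TPC1 (adjusted p = 0.00104) and in D11 (adjusted p = 0.019), and for D11 against TPC1 in the controls (adjusted p = 0.0253), where the count without the block was 0. Over all genes the block moved the calls for NC against NT from 6 higher and 14 lower to 300 and 265 in TPC1, and from 27 and 36 to 195 and 120 in D11. For D11 against TPC1 they moved from 27 higher and 164 lower to 61 and 308. The block changed no other call of the 10 genes. In TPC1 8 of 9 pairs with the same number correlated over 0.1, with 0.0994 as the lowest, so the numbers were not taken to pair that line. Yet 9 of 9 libraries in TPC1 and 8 of 9 in D11 correlated best with one of their own number. The lines are therefore not shown to differ in pairing.

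For the interaction, WEE1 turned from 0.0003 to -0.0019 under RLE scaling and CCNA1 from -0.25 to 0.20 with a pseudocount of 10. Without 1 library the interaction ranged from -0.63 to 0.14 for CCNA1, -0.20 to 0.061 for CCNB2, -0.23 to 0.095 for CDK1, -0.17 to 0.058 for CDC25C and -0.044 to 0.059 for WEE1. PKMYT1 for TPC1 NC against NT ranged from -0.18 to 0.17. None of these passed the test, and the cause of these turns was not tested. Depth limits CCNA1, at 2 to 4 reads in each D11 siDicer library, and 3 libraries per group limit all intervals.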
